A study of Mus musculus with 6 samples.

Results

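A set of 10 genes of the mitotic spindle and of cell division, Tpx2, Nusap1, Hmmr, Ckap2, Nek2, Prc1, Racgap1, Ect2, Anln and Cep55, was followed in sorted thymocytes of mice in which CD4-Cre deletes Kansl1. The 10 members were taken by symbol from the 29626 genes of the deposited count table, and each symbol named 1 row. RNA-seq with poly(A) selection was done on CD4+CD8+ double-positive thymocytes, sorted by flow cytometry from mice of 8 weeks and taken without stimulation. The KANSL1-deficient group held 3 Kansl1fl/fl mice with CD4-Cre, and the control group held 3 Kansl1fl/fl mice with no Cre, which the labels' protocol calls littermates. Both groups carry the floxed alleles, and the CD4-Cre transgene also recombines in the CD4 and CD8 lineages that arise from double-positive cells. Cre is present in 1 group only, so what Cre does by itself and what the loss of Kansl1 does cannot be told apart. KANSL1 scaffolds the NSL complex around the histone acetyltransferase KAT8.

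All 10 members were higher in KANSL1-deficient thymocytes, with fitted rises between 2.53-fold for Cep55 and 7.32-fold for Nek2. By edgeR's quasi-likelihood test with Benjamini-Hochberg adjustment at 0.05, all 10 passed. The members were chosen with earlier results of these data known, so setting them against all genes is a description and not an independent test. Of all 15353 tested genes 6.76% passed, 3.85% as higher (591 genes) and 2.91% as lower, and of the 5525 tested genes within the members' range of mean abundance 4.05% were called higher. DESeq2 also called 10 of 10 higher, against 7.92% of the 13543 genes to which it gave an adjusted p. At least 2-fold rises past the threshold made up 1.5% of tested genes, against 10 of 10 members. In each of the 10 genes the lowest KANSL1-deficient library lay above the highest control library, which held for 14.6% of tested genes (the reverse held for 14%). For 5 of the 10 that gap was at least 2-fold, against 0.736% of tested genes. In these bulk samples the number of dividing cells and the RNA per dividing cell cannot be told apart.

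Many genes of mitosis are expressed in a burst in G2 phase. TPX2, NUSAP1, HMMR and CKAP2 bind or organise spindle microtubules, and the kinase NEK2 loosens the link between the centrosomes so that a bipolar spindle can form. After chromosomes separate, PRC1 bundles antiparallel microtubules into the central spindle, where RACGAP1 and its kinesin partner KIF23 form centralspindlin and recruit ECT2, the guanine nucleotide exchange factor that starts the assembly of the actomyosin ring. Anillin (Anln) scaffolds that ring, and CEP55 brings the membrane-cutting ESCRT machinery to the midbody. In the thymus dividing cells are found among double-negative thymocytes and early double-positive blasts, whereas most double-positive cells are small and out of cycle.

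Values are counts relative to library size (CPM) with TMM scaling factors, and a log2 fold change is KANSL1-deficient over control with its standard error (SE). Library totals lay between 19361968 and 22459830 counts. The targeted gene Kansl1 had 146, 168 and 188 CPM over its whole length in KANSL1-deficient libraries, against 214, 189 and 230 CPM in controls. Every KANSL1-deficient library was below every control, but the log2 fold change of -0.33 ± 0.14 (SE) was not called (edgeR's quasi-likelihood test; Benjamini-Hochberg adjusted p = 0.171). A count over the whole gene includes reads outside the deleted part and does not check the deletion. Gene positions are in build GRCm39, that of the submitters' processing notes. Scaling by library totals lowered log2 fold changes by 0.15 at the median gene and turned the share of called genes that were higher to 27.7%, against 56.9% with TMM. All 10 members were called higher on either scale, with a median log2 fold change of 1.44 with library totals and 1.60 with TMM. Mice are numbered within each group, and the labels do not say which mice came from the same litter or were sorted on the same day, so p-values measure only the spread between these samples, which may be technical.

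**Figure D1:**
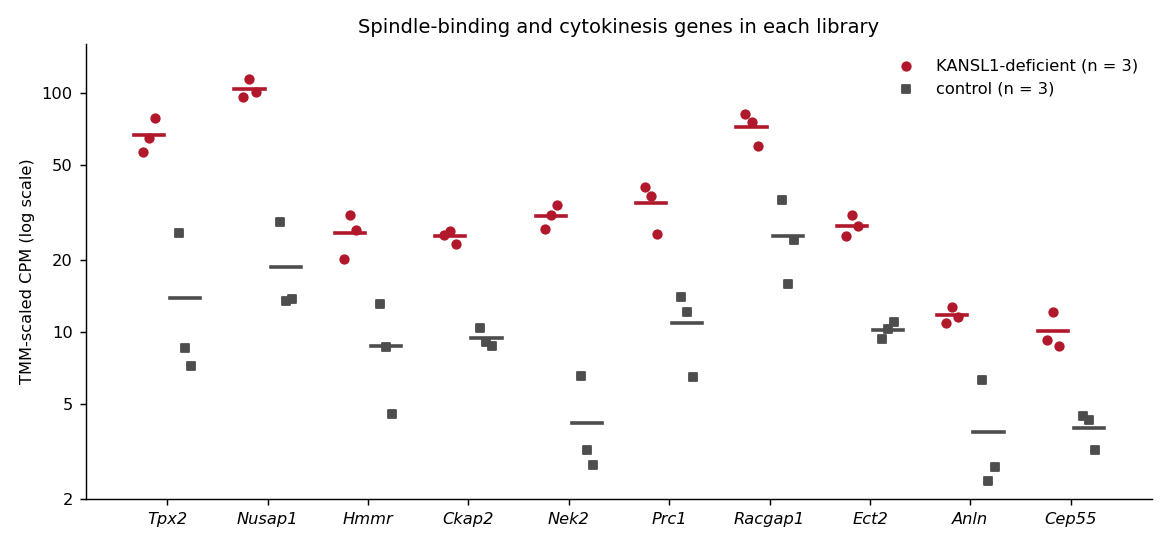
TMM-scaled CPM (log axis) of the 10 genes in each library, with KANSL1-deficient libraries as circles and control libraries as squares, 3 each; horizontal bars are group means. In each gene the 3 circles lie above the 3 squares, with the widest gap in Nek2 and the widest control spread in Tpx2.

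The sequence around the transcription starts was read because the 10 genes rose together. Promoters of 9 of the 10 members were matched by symbol in RefSeq windows of build GRCm38.p6, each holding 250 bases before and 50 after the start. The letters TTTGAA, with the variant TTCGAA and the variant TTTAAA, of the cell cycle genes homology region (CHR), the element through which MuvB complexes act on G2/M genes, were searched on both strands. In the 250 bases before the start a CHR match was present in 2 of 9 members, against 26.5% of 27025 promoters. In the whole window it was present in 7 of 9 members, against 29.0% of promoters. Each of these matches was TTTGAA, found in 18.1% of all windows. The difference between the windows came from Hmmr, Prc1, Racgap1, Anln and Cep55, whose matches lie at or just after the start. The 30 bases around 1 match per gene are shown on the strand of the gene to let the sites be compared, with TTTGAA or its reverse complement in capitals.
Prc1, chr7:80294434-80294463, plus strand: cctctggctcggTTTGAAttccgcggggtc
Hmmr, chr11:40733412-40733441, minus strand: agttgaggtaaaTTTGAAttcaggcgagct
Racgap1, chr15:99651634-99651663, minus strand: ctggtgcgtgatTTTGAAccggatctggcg
Anln, chr9:22389161-22389190, minus strand: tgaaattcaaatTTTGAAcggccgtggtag
Cep55, chr19:38054996-38055025, plus strand: acagccgcgggaTTCAAActcccggaagcg
Ckap2, chr8:22185903-22185932, minus strand: gctttgttcgatTTTGAAatttctcgccgg
Ect2, chr3:27153975-27154004, minus strand: ccgtttaccggaTTTGAAacacactcacaa
The first base of the match lay at position -5 in Prc1, 9 in Hmmr, 6 in Racgap1, 29 in Anln, 25 in Cep55, -101 in Ckap2 and -114 in Ect2, where 1 is the start. Anln also held TTTGAA on the other strand at 22, and Ect2 held it on its own strand at 40. A match is no evidence of binding.

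CCAAT boxes, to which NF-Y binds in many G2/M promoters, were also common. CCAAT on either strand was found before the start in 6 of 9 members (Hmmr, Ckap2, Nek2, Prc1, Racgap1 and Ect2) and in 34.5% of all promoters. At least 2 matches stood before the start in Hmmr and Ect2, against 10.5% of promoters. Their last 150 bases before the start are shown because they hold the most boxes. Capitals mark CCAAT, its reverse complement ATTGG and the CHR match of Ect2.
Hmmr, chr11:40733438-40733587, minus strand: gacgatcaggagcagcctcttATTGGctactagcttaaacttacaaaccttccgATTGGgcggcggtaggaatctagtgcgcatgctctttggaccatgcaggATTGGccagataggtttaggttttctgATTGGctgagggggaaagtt
Ect2, chr3:27153879-27154028, minus strand: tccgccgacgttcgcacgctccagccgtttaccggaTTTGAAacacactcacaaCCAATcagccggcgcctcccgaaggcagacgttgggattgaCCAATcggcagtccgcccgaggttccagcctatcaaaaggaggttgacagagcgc
Hmmr carried a further box at -172, outside the stretch shown. E2F sites of the forms TTTCCCGC, TTTGGCGC, TTTCGCGC and TTTGCCGC were found in 0 of 9 members and in 1.91% of promoters before the start. The Nusap1 window held none of the letters searched. The starts are RefSeq's, and the 20 bases after them were found in a GENCODE M21 transcript of the same gene for 6 of 9 members. The 3 without such a transcript were Hmmr, Anln and Cep55, which are 3 of the 5 genes whose CHR match lies outside the 250 bases before the start, so the count of 7 of 9 rests in part on starts not found in that annotation.

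**Figure D2:**
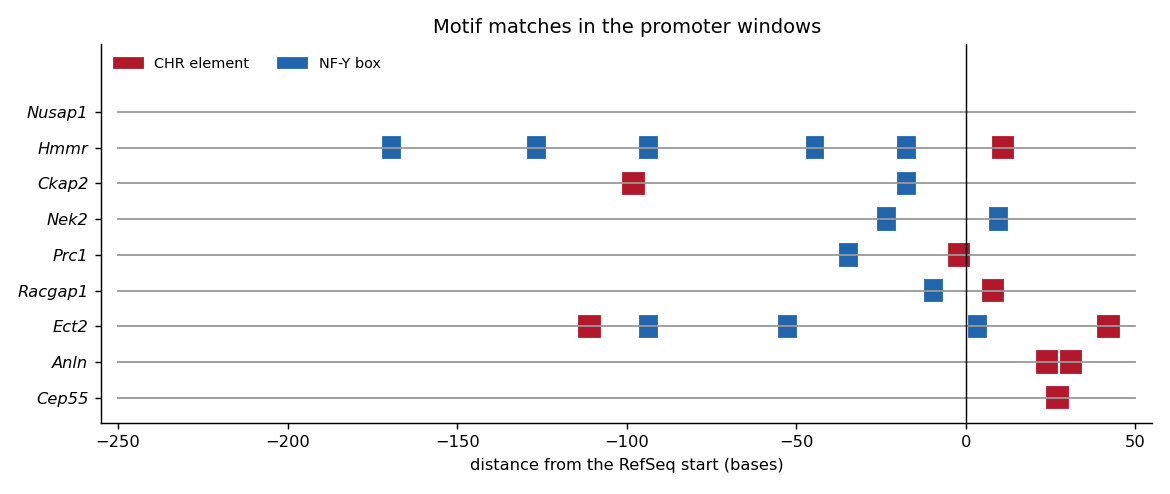
Position of CHR matches and of CCAAT (NF-Y) boxes on either strand in the RefSeq promoter windows of 9 members, by distance in bases from the annotated start (vertical line). CHR matches lie at or within 50 bases after the start in Hmmr, Prc1, Racgap1, Ect2, Anln and Cep55, and the CCAAT boxes of Hmmr reach back to -172.

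Summed over the spindle genes Tpx2, Nusap1, Hmmr and Ckap2, the level was 221 ± 19.9 CPM in KANSL1-deficient and 50.7 ± 23.9 CPM in control libraries (SD, n = 3 each), and their fold changes differed from gene to gene. Nusap1, which bundles spindle microtubules (ENSMUSG00000027306, chromosome 2, 119448779 to 119481725), reached 96.4, 114 and 100.4 CPM in KANSL1-deficient libraries, against 28.7, 13.4 and 13.7 CPM in control libraries. The KANSL1-deficient libraries lay close together, and control replicate 1 stood above the other two controls. The log2 fold change was 2.48 ± 0.27 (SE; Benjamini-Hochberg adjusted p = 0.00287 by edgeR's quasi-likelihood test), and Nusap1 had the rank 4 of 15353 by p.

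Tpx2, the activator and spindle anchor of the kinase Aurora A (ENSMUSG00000027469, chromosome 2, 152689884 to 152737241), had 56.4, 64.7 and 78.7 CPM in KANSL1-deficient libraries, against 26.0, 8.54 and 7.17 CPM in controls. Control replicate 1 was 3.31 times the mean of the other controls, the largest such excess among the 10 genes. The groups still did not overlap, and the lowest KANSL1-deficient library was 2.17 times control replicate 1. Its log2 fold change was 2.26 ± 0.40 (SE; Benjamini-Hochberg adjusted p = 0.00829 by edgeR's quasi-likelihood test). Without control replicate 1 the log2 fold change was 3.07, and without control replicate 2 it was 1.99 and did not pass (adjusted p = 0.0533).

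Hmmr, which encodes a hyaluronan receptor that also binds spindle microtubules (ENSMUSG00000020330, chromosome 11, 40592222 to 40624249), had 20.1, 30.9 and 26.6 CPM in KANSL1-deficient libraries and 13.0, 8.67 and 4.53 CPM in controls. Both groups were spread, and the lowest KANSL1-deficient library was 1.54 times the highest control, the smallest gap of the 10 genes. Its log2 fold change was 1.57 ± 0.34 (SE; Benjamini-Hochberg adjusted p = 0.0196 by edgeR's quasi-likelihood test). It did not pass without KANSL1-deficient replicate 2 (adjusted p = 0.0892), replicate 3 of that group (0.0537) or control replicate 2 (0.0800).

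Ckap2, a microtubule stabiliser (ENSMUSG00000037725, chromosome 8, 22658176 to 22675835), was the steadiest of the 10 in KANSL1-deficient libraries, at 25.5, 26.4 and 23.3 CPM, with 10.4, 9.07 and 8.75 CPM in controls. No library stood apart within either group, and the coefficient of variation was 6.50% in KANSL1-deficient and 9.29% in control libraries. Its log2 fold change was 1.42 ± 0.21 (SE; Benjamini-Hochberg adjusted p = 0.00458 by edgeR's quasi-likelihood test).

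Nek2, the centrosome-separating kinase (ENSMUSG00000026622, chromosome 1, 191553556 to 191565162), had the largest fold change of the 10. It was read at 26.9, 30.7 and 33.8 CPM in KANSL1-deficient libraries, against 6.53, 3.21 and 2.77 CPM in controls, so the lowest KANSL1-deficient library was 4.11 times the highest control. The log2 fold change was 2.87 ± 0.32 (SE, 95% interval 2.18 to 3.57; Benjamini-Hochberg adjusted p = 0.00287 by edgeR's quasi-likelihood test). Among the 5525 tested genes within the members' own range of mean abundance, Nek2 had the rank 1 by fold change and Nusap1 the rank 3. Over all 15353 tested genes these ranks were 37 for Nek2 and 57 for Nusap1.

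**Figure D3:**
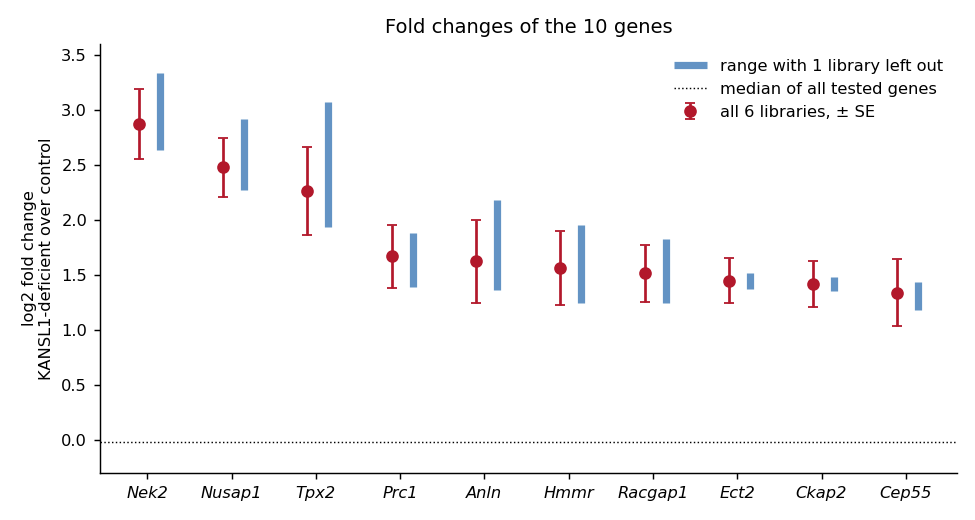
Log2 fold change, KANSL1-deficient over control, of each gene with its SE (points), the range of the estimate when any 1 library was left out (bars) and the median of all tested genes (dotted line). Nek2, Nusap1 and Tpx2 lie above 2, the other 7 genes lie between 1.34 and 1.67, and Tpx2 has the longest bar.

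The central spindle genes Prc1, Racgap1 and Ect2 summed to 134 ± 18.6 CPM in KANSL1-deficient and 46.3 ± 11.1 CPM in control libraries (SD, n = 3 each). Prc1, the microtubule bundler (ENSMUSG00000038943, chromosome 7, 79944198 to 79966007), had 40.5, 37.1 and 25.8 CPM in KANSL1-deficient libraries and 14.0, 12.1 and 6.47 CPM in controls. Replicate 3 was the lowest library in each group, and the groups did not overlap. On the log2 scale Prc1 rose by 1.67 ± 0.29 (SE; Benjamini-Hochberg adjusted p = 0.00775 by edgeR's quasi-likelihood test). The annotated span of Rccd1 on the opposite strand covers Prc1 whole (21810 bases), and the strand setting of the counting was not given in the sources used here. Rccd1 fell (log2 fold change -0.92, adjusted p = 0.0301), with 659 counts in the KANSL1-deficient libraries and 1336 in the control libraries.

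Racgap1, the GTPase-activating subunit of centralspindlin (ENSMUSG00000023015, chromosome 15, 99518377 to 99549537), reached 81.4, 75.4 and 59.7 CPM in KANSL1-deficient libraries, against 35.6, 15.8 and 24.3 CPM in controls. The controls differed among themselves by up to 2.26-fold, less than the 2.86-fold rise. On the log2 scale Racgap1 rose by 1.52 ± 0.26 (SE; Benjamini-Hochberg adjusted p = 0.00728 by edgeR's quasi-likelihood test).

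Ect2, the exchange factor of cytokinesis (ENSMUSG00000027699, chromosome 3, 27151371 to 27208027), had 25.1, 30.7 and 27.7 CPM in KANSL1-deficient libraries and 9.33, 10.3 and 11.0 CPM in controls. It was the 1 gene of the 10 in which control replicate 1 was not the highest control but the lowest. On the log2 scale Ect2 rose by 1.45 ± 0.20 (SE; Benjamini-Hochberg adjusted p = 0.00406 by edgeR's quasi-likelihood test).

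Anln and Cep55, of the contractile ring and of abscission, had the fewest counts of the 10. They summed to 21.8 ± 2.71 CPM in KANSL1-deficient and 7.77 ± 2.59 CPM in control libraries (SD, n = 3 each). Anln, the ring scaffold (ENSMUSG00000036777, chromosome 9, 22243308 to 22300484), reached 10.9, 12.7 and 11.5 CPM in KANSL1-deficient libraries, against 6.29, 2.38 and 2.73 CPM in controls, from 221, 270 and 230 counts in KANSL1-deficient and 130, 54 and 62 counts in control libraries. Control replicate 1 was 2.46 times the mean of the other controls, and the groups did not overlap. Anln had a log2 fold change of 1.63 ± 0.38 (SE; Benjamini-Hochberg adjusted p = 0.0260 by edgeR's quasi-likelihood test). It did not pass when KANSL1-deficient replicate 1, 2 or 3 was left out (adjusted p = 0.0790, 0.101 and 0.0645), nor without control replicate 2 or 3 (0.0950 and 0.0785). Without control replicate 1 it passed, with a log2 fold change of 2.18.

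Cep55, the midbody protein (ENSMUSG00000024989, chromosome 19, 38043459 to 38062871), had 9.25, 12.2 and 8.76 CPM in KANSL1-deficient libraries, against 4.45, 4.27 and 3.21 CPM in controls. KANSL1-deficient replicate 2 was the high library, and the controls lay within 1.39-fold of each other. Cep55 had a log2 fold change of 1.34 ± 0.30 (SE; Benjamini-Hochberg adjusted p = 0.0239 by edgeR's quasi-likelihood test). It did not pass without KANSL1-deficient replicate 1 (adjusted p = 0.0738) or 2 (0.118), or without control replicate 2 (0.0731) or 3 (0.0653).

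Most of the set shared the highest control library, but not a full order of the controls. The lowest control was replicate 3 in 6 genes, replicate 2 in 3 and replicate 1 in 1. Control replicate 1 was the highest control in 9 of the 10 genes, and relative to the control mean the members averaged 0.54 on the log2 scale in it, against -0.18 and -0.36 in replicates 2 and 3. In the KANSL1-deficient libraries the same averages were 1.81, 2.01 and 1.83. Summed over the 10 genes, the level was 392, 435 and 396 CPM in KANSL1-deficient libraries and 154, 87.7 and 84.7 CPM in controls, so the lowest KANSL1-deficient library held 2.54 times the highest control. Replicate 1 of the controls was 1.79 times the mean of the other controls in this sum. The coefficient of variation was larger among controls than among KANSL1-deficient libraries in 8 of the 10 genes. Without control replicate 1 all 10 genes were called, with a median log2 fold change of 1.92. Without control replicate 2 the number called was 6.

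**Figure D4:**
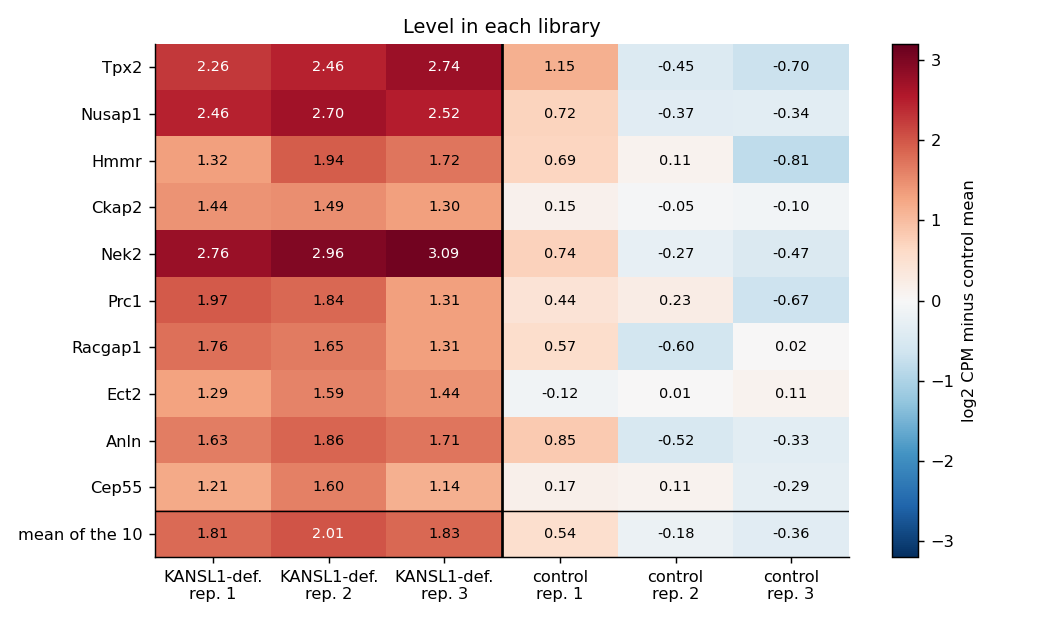
Log2 CPM of each gene in each library minus its mean over the control libraries; colour and printed value give the same quantity, and the last line is the mean over the 10 genes. KANSL1-deficient values lie between 1.14 and 3.09, and control replicate 1 is positive in each gene but Ect2.

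Per unit of gene length the order of the genes differed in part between the groups. By the FPKM that the authors deposited, Nusap1 was highest in both groups, at 24.2 ± 2.19 in KANSL1-deficient and 4.84 ± 2.34 in control thymocytes (SD, n = 3 each), and Anln was lowest, at 1.22 ± 0.105 in KANSL1-deficient and 0.443 ± 0.259 in control thymocytes. Nek2 had the rank 5 in KANSL1-deficient cells, at 6.41 ± 0.866 FPKM, and the rank 9 in controls, at 0.975 ± 0.494 FPKM (SD, n = 3 each). In KANSL1-deficient cells Nusap1, Tpx2 (13.5 ± 2.58), Racgap1 (9.65 ± 1.31) and Ckap2 (7.39 ± 0.375) followed each other without overlap between libraries. From Ckap2 to Nek2, and from Ect2 (4.90 ± 0.533) through Hmmr (4.52 ± 0.989) and Prc1 (3.96 ± 0.816) to Cep55 (3.28 ± 0.584), neighbours overlapped, and Anln lay below. In controls the libraries of neighbours overlapped at 8 of 9 steps and were separate between Ckap2 and Ect2: Racgap1 was at 3.77 ± 1.54, Tpx2 at 3.15 ± 2.42 and Ckap2 at 3.08 ± 0.325 FPKM. Below them came Ect2 at 1.99 ± 0.151, Hmmr at 1.70 ± 0.840, Cep55 at 1.44 ± 0.245 and Prc1 at 1.39 ± 0.507 FPKM. Of the FPKM summed over the 10 genes, Nusap1 made up 30.6% in KANSL1-deficient and 21.3% in control cells, Tpx2 17.1% in KANSL1-deficient and 13.8% in control cells, and Nek2 8.11% in KANSL1-deficient and 4.28% in control cells. The other 7 genes made up smaller shares in KANSL1-deficient than in control cells.

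Some partners of the 10 at the central spindle rose too. Beside the counts below, edgeR called 3.85% of all tested genes higher and 2.91% lower. Of 23 tested genes of the central spindle and contractile ring outside the 10, 10 rose and 0 fell (edgeR; 15 higher and 0 lower at an unadjusted p under 0.05, and 0 lower by DESeq2 and limma-voom). Their median log2 fold change was 0.54, against 1.60 for the 10 and -0.02 for all tested genes. Those with the smallest p were Kif4, the kinesin that carries PRC1 to microtubule ends (34.6 ± 4.40 in KANSL1-deficient and 7.19 ± 1.18 CPM in control libraries, SD, n = 3 each; log2 fold change 2.27), the kinase gene Aurkb (2.26) and the survivin gene Birc5 (1.86). Kif23, the kinesin of centralspindlin, had 34.5 ± 1.20 CPM in KANSL1-deficient and 19.7 ± 1.95 CPM in control libraries (log2 fold change 0.81 ± 0.18, SE; adjusted p = 0.0215, edgeR quasi-likelihood test). Kif23 did not pass when any 1 KANSL1-deficient library or control replicate 2 was left out (adjusted p up to 0.0931). Plk1, the kinase that primes RACGAP1 for ECT2 binding, had a log2 fold change of 1.72 (adjusted p = 0.0247), which did not pass without KANSL1-deficient replicate 2 or 3 or control replicate 2 or 3 (up to 0.103). The number of this list that rose was 5 and 6 with KANSL1-deficient replicates 2 and 3 left out in turn, and 5 without control replicate 2. Over all tested genes, these fits called 169, 345 and 195 higher, against 591 with all libraries.

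Among 38 other spindle assembly factors, 12 rose and 1 fell, against 3.85% of all tested genes called higher and 2.91% lower (edgeR). The list median was 0.30 on the log2 scale. With library totals 9 rose and 2 fell. Those with the smallest p were the plus-end kinesin gene Kif11 (132 ± 21.6 in KANSL1-deficient and 37.5 ± 13.2 CPM in control libraries, SD, n = 3 each; log2 fold change 1.82), Ckap2l, a paralog of Ckap2 (1.96), and Dlgap5 (1.76). Aurka, whose product TPX2 activates, had 50.4 ± 0.939 CPM in KANSL1-deficient and 27.4 ± 8.75 CPM in control libraries and a log2 fold change of 0.88 ± 0.23 (SE; adjusted p = 0.0403, edgeR quasi-likelihood test). With any 1 library left out Aurka did not pass (adjusted p between 0.0520 and 0.121). The gamma-tubulin complex gene Tubgcp6 fell, with a log2 fold change of -0.81 (adjusted p = 0.0265), and did not pass without KANSL1-deficient replicate 1 or 3 or control replicate 1 or 2 (up to 0.101). Without KANSL1-deficient replicate 1, 2 or 3 the number that rose was 5, 5 and 8, and without control replicate 2 it was 3. In the same fits 197, 169, 345 and 195 of all tested genes were called higher, against 591 with all libraries.

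Genes of the centrosome linker, of abscission and of the anaphase-promoting complex had medians near that of all genes. For the counts that follow, edgeR called 3.85% of all tested genes higher and 2.91% lower. Of 20 tested NEK kinases and centrosome genes besides Nek2, 2 rose (Stil and Sass6, both of centriole duplication, log2 fold changes 1.57 and 0.72) and 1 fell (Lrrc45, of the linker, -0.69). With library totals 1 rose and 3 fell, with DESeq2 2 rose and 3 fell of 22, and with a filter at 5 CPM 2 rose and 3 fell of 16, so this list has no settled direction. The linker genes Cep250 and Crocc, whose products NEK2 acts on, had log2 fold changes of 0.23 and -0.77 that did not pass (edgeR quasi-likelihood test, adjusted p = 0.396 and 0.529). Of 19 ESCRT genes 0 rose by edgeR, by DESeq2 or by limma-voom (1 was higher at an unadjusted p under 0.05). With 3.85% of all tested genes called higher, 0 of 19 does not set the ESCRT genes apart. In this list 2 fell, Chmp2b (-0.70) and Vps28 (-0.57). Pdcd6ip and Tsg101, which bind CEP55, had log2 fold changes of 0.32 and 0.17 (adjusted p = 0.219 and 0.571). Of 19 genes of the anaphase-promoting complex and its regulators, 3 rose, the coactivator gene Cdc20 (1.51), the E2 enzyme gene Ube2c (1.80) and the inhibitor gene Fbxo5 (1.06), and Anapc10 fell by 0.94 on the log2 scale. The list medians were -0.04, 0.05 and 0.13 with TMM and -0.19, -0.10 and -0.02 with library totals, so they carry no direction. Without KANSL1-deficient replicate 1, 2 or 3, or control replicate 2 or 3, 0 or 1 centrosome genes rose and 0 fell. In the same fits 0 or 1 ESCRT genes fell. Stil did not pass without KANSL1-deficient replicate 2 (adjusted p = 0.0554) nor Chmp2b without KANSL1-deficient replicate 1 (0.0707), while Sass6, Lrrc45 and Vps28 passed in 1 of 6 such fits each, without control replicate 1. Ube2c did not pass without KANSL1-deficient replicate 2 or control replicate 2 (up to 0.0740), and Anapc10 did not without any 1 KANSL1-deficient library or control replicate 2. The anaphase-promoting complex list had 2 higher and 0 lower without KANSL1-deficient replicate 2 or control replicate 2.

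Of 16 regulators that act on G2/M promoters, 1 rose: Tfdp1, the dimer partner of E2F proteins, with a log2 fold change of 0.88 (adjusted p = 0.00644, edgeR quasi-likelihood test). The list median was 0.40. By the same test 3.85% of all tested genes were called higher. At an unadjusted p under 0.05, 8 of the 16 were higher and 0 lower. In 8 of the 16 every KANSL1-deficient library lay above every control library, which held for 14.6% of tested genes. Mybl2 and Foxm1, named after their values were seen because they encode the activators that join MuvB at CHR elements, had log2 fold changes of 1.06 and 1.02 (adjusted p = 0.107 and 0.0800). Without control replicate 1 the number that rose was 3, as with limma-voom, and with DESeq2 it was 6.

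**Figure D5:**
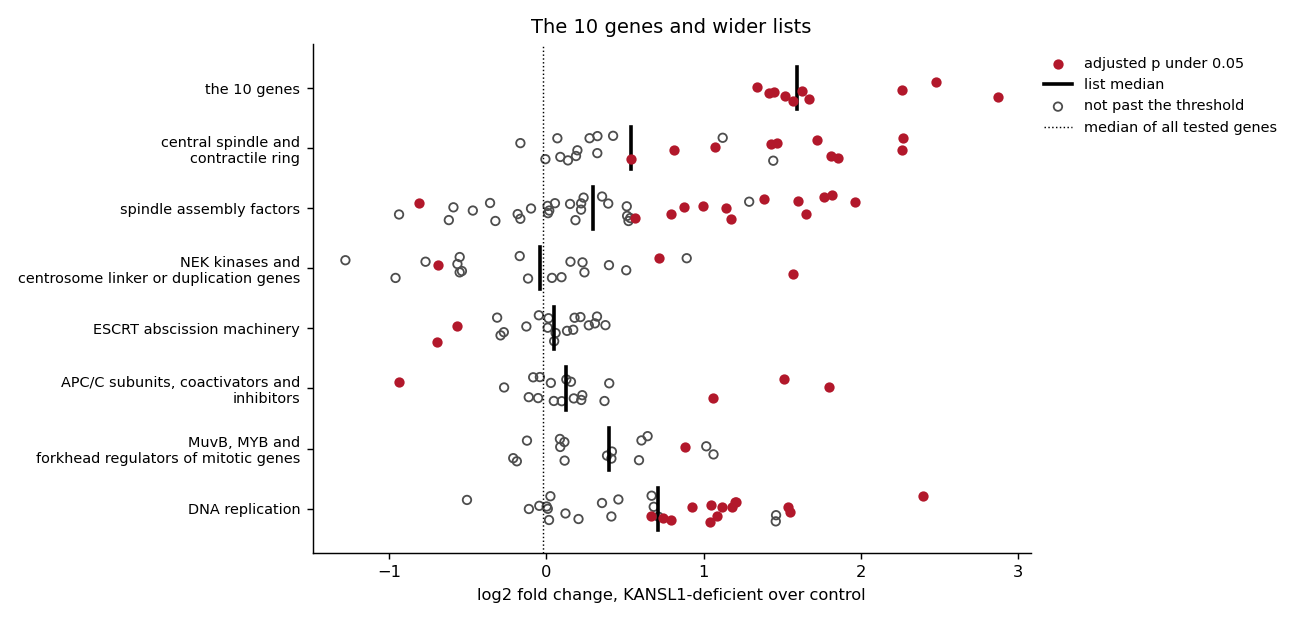
Log2 fold change, KANSL1-deficient over control, of each tested gene in the set of 10 and in the 7 wider lists; filled points passed the threshold, open points did not, and vertical bars are list medians. The 10 genes lie to the right of 1.3, while the wider lists hold both open points around 0 and filled points up to 2.39.

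DNA replication genes were a further list, set beside 3.85% of all tested genes called higher and 2.91% lower by edgeR. Of 31 tested, 14 rose and 0 fell (edgeR; 22 higher and 1 lower at an unadjusted p under 0.05, and 0 lower by DESeq2 and limma-voom), with a median of 0.71 on the log2 scale. Those with the smallest p were the licensing gene Cdc6 (1.53), the fork loading gene Mcm10 (2.39) and the ribonucleotide reductase gene Rrm2 (1.55). The summed level of the list was 2819 ± 176 in KANSL1-deficient and 1851 ± 170 CPM in control libraries (SD, n = 3 each). The 10 genes together amounted to 14.9%, 14.6% and 13.9% of that sum in KANSL1-deficient libraries, against 7.57%, 5.14% and 4.69% in controls. Control replicate 1 was the highest control in both sums. The number of this list that rose was 8 without KANSL1-deficient replicate 2 and 9 without control replicate 2. Of all tested genes, 169 and 195 were called higher in those fits, against 591 with all libraries.

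Cell type markers were set beside these values. The 8 double-positive markers were all tested and summed to between 12552 and 13879 CPM in KANSL1-deficient and between 10951 and 11403 CPM in control libraries, with 2 of 8 called higher. Cd4 had 2441 ± 182 CPM in KANSL1-deficient and 2024 ± 226 CPM in control libraries (SD, n = 3 each). Of 6 double-negative markers 5 were tested and 0 called by edgeR, also at an unadjusted p under 0.05. They summed to between 67.6 and 83.2 CPM in KANSL1-deficient and between 52.7 and 63.4 CPM in control libraries, and Il7r had 1 count in KANSL1-deficient replicate 3 and 0 in the other 2 KANSL1-deficient libraries, against 10, 17 and 0 counts in controls. Of 6 CD4 single-positive markers 4 were tested and 1 was called higher. Their sums were between 406 and 571 CPM in KANSL1-deficient and between 244 and 297 CPM in control libraries, while Zbtb7b had 1 count in KANSL1-deficient replicate 2 and 0 in the other 5 libraries. The 5 CD8 single-positive markers, of which 2 were tested and 0 called by edgeR (both were lower at an unadjusted p under 0.05), summed to between 15.1 and 18.3 CPM in KANSL1-deficient and between 26.1 and 29.0 CPM in control libraries. B cell markers summed to between 41.0 and 56.5 CPM in KANSL1-deficient and between 42.7 and 61.2 CPM in control libraries, and those of gamma-delta T and NK cells to between 26.2 and 30.9 CPM in KANSL1-deficient and between 20.8 and 25.6 CPM in control libraries. The part of other cell types or stages in the rise of the 10 genes was not tested.

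Genes outside the set with the most similar profile over the 6 libraries were ranked by Pearson's r with the members' mean log2 CPM, as a description in which the group difference and the libraries are shared. The 8 nearest protein-coding genes of at least 5 CPM were Cdh24, Pbk, Kif22, Atxn10, Fam111a, Hmga1, Rad51ap1 and Ckap2l, with r between 0.994 and 0.998. Pbk, a mitotic kinase gene, had 37.4 ± 4.15 in KANSL1-deficient and 9.93 ± 4.02 CPM in control libraries (SD, n = 3 each), and Kif22, a chromosome-binding kinesin gene, 70.5 ± 4.13 CPM in KANSL1-deficient and 32.9 ± 8.09 CPM in control libraries. Rad51ap1, of recombination repair, had a log2 fold change of 2.01, Hmga1, an architectural chromatin gene, of 1.03, and Cdh24, a cadherin gene, of 0.71. Cdh24 did not pass in 5 of 6 fits with 1 library left out (all but control replicate 1; adjusted p up to 0.116), nor Fam111a (1.61) without KANSL1-deficient replicate 2 or control replicate 2 (up to 0.0700). Atxn10 differed by 0.40 on the log2 scale without passing (adjusted p = 0.0535, edgeR quasi-likelihood test), although DESeq2 called it higher (adjusted p = 0.0126). Within the set, r with the mean of the other members was between 0.918 for Ect2 and 0.998 for Nusap1 over the same 6 libraries.

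Apart from Prc1, annotated overlaps with other genes of the table were short: 172 bases of Nusap1 with Oip5 on the opposite strand, 550 bases of Nek2 with Gm38037, 1228 bases of Anln with Gm48646, 119 bases of Nusap1 with n-R5s204 and 114 bases of Ect2 with Gm25152. Gm38037 had 37 counts in KANSL1-deficient and 6 in control libraries, and Gm48646 had 2 counts in KANSL1-deficient and 0 in control libraries. In the authors' deposited table all 10 genes are marked as changed, with log2 fold changes between 1.34 for Cep55 and 2.88 for Nek2 and adjusted p-values between 1.20e-19 for Nusap1 and 0.00270 for Tpx2.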

How the data were processed

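Double-positive thymocytes of 3 KANSL1-deficient and 3 control mice were compared. The tools named by the submitters' processing notes are STAR, featureCounts and DESeq2, and the build is GRCm39. Versions, annotation and strand setting were not given in the sources used here. Separately, the authors deposited whole-number read counts per gene and, for the same genes, FPKM. Per the file headers, they also deposited their own log2 fold change and adjusted p-value.

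Counts were tested with the quasi-likelihood test of edgeR 4.0.16 (R 4.3.3; limma 3.58.1 and DESeq2 1.42.0 as alternatives) with TMM scaling, the default filter (minimum count 10, minimum total 15) and Benjamini-Hochberg adjustment at 0.05 over the 15353 tested genes. The SE is the size of the log2 fold change divided by the square root of F. The test was run on simulated data first. An exact two-sided permutation test of 3 against 3 libraries gives no p below 0.1, the value it gave for each member. No 2 libraries were alike within counting noise. Deviations of same-numbered libraries had correlations of -0.0486, -0.0236 and -0.0955, against -0.0314 to 0.0734 for differently numbered ones. The main test used no pairing. These values cannot show which mice shared a litter or a sort.

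Genes named beside the members were those with the smallest p in each wider list (up to 3 per direction), direct partners of a member (one is not reported here), and the 8 of most similar profile. The members and lists were chosen with earlier results of these data known. Gene names are the table's. Log2 CPM used a prior count of 2.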

Additional observations from a re-analysis of the deposited data

How the results depend on the processing

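Number of members called higher by setting: all 10 were called by DESeq2, by limma-voom, with library totals, with median-of-ratios factors, without the filter and with one at 5 CPM in 3 libraries, 9 with limma on log2(FPKM + 1) and 8 on log2(FPKM + 0.1). With 1 library left out the number lay between 6 (without control replicate 2) and 10 (without control replicate 1). With the replicate block 9 were called (Cep55 was not, adjusted p = 0.0623), although the labels do not say that the numbers pair the samples. None changed direction in any of these fits. Nusap1, Ckap2, Nek2, Prc1, Racgap1 and Ect2 passed under each of 15 alternatives, Tpx2 under 14, Hmmr under 11, Cep55 under 10 and Anln under 8. Over all genes, 1038 passed, against 1729 with no filter, 2018 with DESeq2 and 406 with the replicate block. With 1 library left out between 283 and 811 passed: 283, 305 and 525 without KANSL1-deficient replicates 1, 2 and 3, and 339 without control replicate 2. On the log2(FPKM + 1) scale the members' fold changes were smaller, with a median of 1.07 and 0.64 for Anln. A pseudocount shrinks low values, and with 0.1 in place of 1 the median was 1.43. On counts it was 1.44 with library totals and 1.60 with TMM. The parts of pseudocount and scaling in the smaller values were not tested. CHR matches depended on the promoter window, with 7 of 9 members in the whole window and 2 of 9 before the start. Counts were under 100 in some control libraries for Anln, Cep55 and Nek2, which limits the precision of their control levels.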
